A study of Mus musculus with 3 samples.

Results

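Transthyretin, retinol-binding protein 4, alpha-fetoprotein and 7 apolipoproteins are secreted carrier proteins, and the levels of their 10 genes (Ttr, Rbp4, Afp, Apoa1, Apoa2, Apoa4, Apob, Apoc1, Apoe and Apom) were compared among cell types of the early mouse embryo. The genes were taken by symbol, and all 10 were found among the 31054 features of the count tables. The visceral endoderm is the outer epithelium of the early embryo and later lines the yolk sac, where it takes up maternal nutrients through a receptor complex of cubilin (Cubn) and amnionless (Amn). Before the liver forms, this tissue secretes many of the plasma proteins that the liver makes later. Lipids leave it on lipoprotein particles built on apolipoprotein B, and retinol leaves on retinol-binding protein, which transthyretin binds in plasma.

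The material was dissociated cells of 3 wild-type embryos, male by the study's genotyping and of C57BL/6 x 129 SvEv background, taken at embryonic day 8 with 0 to 1 somites by the collection protocol and 0 to 2 by the stage label. Extraembryonic tissue was cut away for genotyping, and the labels do not say how much of the yolk sac stayed on each embryo. Every embryo gave 1 droplet library with unique molecular identifiers (UMIs), which count each captured transcript once, and no other genotype, age or treatment entered the comparisons. After filtering, embryos 1, 2 and 3 kept 5795, 7956 and 7844 cells, with 191843539, 144790573 and 165506028 UMIs and medians of 27635, 14615 and 16332.5 UMIs per cell. Between 18 and 22 cell barcodes were shared by each pair of libraries.

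Cells were classed by marker genes. A cell with at least 1 UMI of Cubn and of Amn was called visceral endoderm, and a cell with at least 1 UMI of Trh and of Sox17 was called gut endoderm. Cells that met both gates, 76, 100 and 125 in embryos 1, 2 and 3, were kept apart, and cells that met neither are the other cells. Visceral endoderm held 291, 1283 and 1035 cells, or 5.02%, 16.1% and 13.2% of the cells of each embryo, and gut endoderm held 429, 330 and 309. Of the visceral endoderm cells, 372 of 2609 also met the gate of a further lineage. The gates were checked with genes that they did not use. All 8 genes of a visceral endoderm list were higher in visceral endoderm than in other cells, among them the transcription factor Hnf4a (log2 difference 8.06) and the endocytic adaptor Dab2 (5.27), where 32.3% of all genes tested were higher. Against gut endoderm 6 of them were higher and 2 lower, where 29.2% of all genes tested were higher and 29.5% lower. All 8 genes of a gut endoderm list were higher in gut endoderm than in other cells, among them the transcription factor Foxa1 (4.97), where 14.3% of all genes tested were higher. Of these 8, 6 were also higher in visceral endoderm than in other cells, and 6 were lower and 2 higher in visceral than in gut endoderm. Epcam and Spink1 stand in both lists. A further 11 lineages were gated in the same way, from cells that met exactly 1 gate. In the tests against cardiac cells the same limit held for both endoderm classes, which left 243, 1122 and 872 visceral and 259, 241 and 211 gut endoderm cells, while their levels and their place in an order of levels come from all cells of the class. Among them was the left-right organizer, the ciliated pit that sets the left-right axis, gated by Foxj1 and Noto. The erythroid gate held 1 cell in embryo 1, so erythroid values come from embryos 2 and 3.

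Levels are given as CPM, the UMIs of a gene scaled to a total of 1000000 UMIs in the summed cells of a class, and as mean ± SD over the 3 embryos. They compare classes for 1 gene and not genes with each other. The sums were tested with the quasi-likelihood test of edgeR, with p-values adjusted over all genes tested (Benjamini-Hochberg) and called at 0.05. The main fit had no embryo term. The sums of 1 embryo deviated together from their class means, so the fit with the embryo as a block is given where it changes a call.

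In the GENCODE annotation of the mouse genome (GRCm38, the build of the files), the set includes 2 pairs of nearby genes. Apoa1 (ENSMUSG00000032083, chr9:46228580-46230466, plus strand) and Apoa4 (ENSMUSG00000032080, chr9:46240696-46243459, plus strand) are 10229 bases apart. Apoc3, which is not in the set, lies between them. Apoe (ENSMUSG00000002985, chr7:19696109-19699188, minus strand) and Apoc1 (ENSMUSG00000040564, chr7:19689481-19692660, minus strand) are 3448 bases apart. Rbp4 lies at chr19:38116629-38125281, Afp at chr5:90490737-90508907, Apoa2 at chr1:171225054-171226379, Apob at chr12:7977648-8016835 and Apom at chr17:35128997-35132050.

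Promoter sequences from RefSeq (GRCm38.p6) were found for 8 of the 10 genes, and not for Ttr and Apoc1. The 250 bases before each start site were searched on both strands for short motifs of factors known in visceral endoderm and liver, which were CAAAGTC for HNF4, TGTTTAC and TGTTTGC for FOXA, and AGATAA for GATA. The 8 genes have 12 such windows. A FOXA motif was found in 5 of them, each of another gene (Rbp4, Afp, Apoa1, Apoa2 and Apob), and 7.31% of 32536 RefSeq windows of that length hold one. The HNF4 motif (3.87% of all windows) and the GATA motif (9.97%) were found in none of them. Printed 5′ to 3′ are the windows of the 5 genes with a FOXA motif and, for contrast, the first window of Apoe, the gene with the widest expression. Capitals mark motif matches, and bases inside the annotated gene are left out. A match is a string of letters and not a measured binding site.
Rbp4, chr19:38125322-38125571, minus strand: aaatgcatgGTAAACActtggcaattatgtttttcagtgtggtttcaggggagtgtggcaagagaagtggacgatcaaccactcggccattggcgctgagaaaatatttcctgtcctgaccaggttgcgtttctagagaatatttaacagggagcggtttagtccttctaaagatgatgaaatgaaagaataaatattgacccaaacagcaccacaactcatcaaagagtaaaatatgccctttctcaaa
Afp, chr5:90490464-90490713, plus strand: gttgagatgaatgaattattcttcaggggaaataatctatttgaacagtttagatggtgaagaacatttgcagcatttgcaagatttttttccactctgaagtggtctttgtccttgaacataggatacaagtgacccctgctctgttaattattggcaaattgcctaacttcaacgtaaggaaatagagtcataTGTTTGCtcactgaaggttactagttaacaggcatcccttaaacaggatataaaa
Apoa1, chr9:46228380-46228579, plus strand: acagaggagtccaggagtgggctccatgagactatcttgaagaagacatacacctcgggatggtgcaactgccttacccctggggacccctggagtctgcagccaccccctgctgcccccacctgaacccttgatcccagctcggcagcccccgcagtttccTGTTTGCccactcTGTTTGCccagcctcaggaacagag
Apoa2, chr1:171224804-171225053, plus strand: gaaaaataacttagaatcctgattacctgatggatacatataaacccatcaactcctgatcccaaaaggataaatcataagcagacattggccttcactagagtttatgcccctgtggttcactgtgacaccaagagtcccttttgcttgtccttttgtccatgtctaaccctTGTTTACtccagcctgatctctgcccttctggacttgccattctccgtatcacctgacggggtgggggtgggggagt
Apob, chr12:7977427-7977647, plus strand: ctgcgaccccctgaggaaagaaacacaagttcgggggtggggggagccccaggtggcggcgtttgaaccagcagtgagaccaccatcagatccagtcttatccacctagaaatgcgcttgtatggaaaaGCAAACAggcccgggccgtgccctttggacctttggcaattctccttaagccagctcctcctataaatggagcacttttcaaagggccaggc
Apoe, chr7:19699189-19699438, minus strand: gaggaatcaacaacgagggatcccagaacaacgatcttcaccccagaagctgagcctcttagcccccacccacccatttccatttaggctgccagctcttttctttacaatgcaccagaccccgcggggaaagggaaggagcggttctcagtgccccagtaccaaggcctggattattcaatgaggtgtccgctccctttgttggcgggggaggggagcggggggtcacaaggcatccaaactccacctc

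The match of Afp began 55 bases before the start site, and those of Apoa1 began 88 and 75 bases before it. Those of Apoa2, Apob and Rbp4 began 77, 121 and 241 bases before it. The last 50 bases of the Apoa1 window and the last 29 of the Apob window lay inside the annotated gene and are not printed. Positions count from the start site and not from the end of the printed sequence. No match was found in the windows of Apoa4, Apoe and Apom. Inside the annotated gene lay 249 of the 250 bases of the Apom window and 148 of those of Apoa4. So did all bases of the further windows of Apoe and Rbp4. These further windows and that of Apom hold little or no sequence before the annotated gene. The window of Apoa4 holds 102 bases before it.

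All 10 genes were higher in visceral endoderm than in gut endoderm and than in all other cells. Against gut endoderm the fold changes ran from 7.52 (Apoe) to 139 (Apoa1), with adjusted p between 4.99e-08 and 2.06e-06. Against other cells they ran from 22.2 (Apoe) to 325 (Apob), with adjusted p between 2.61e-08 and 4.33e-06. The median log2 fold change of the 10 genes was 5.94 against gut endoderm and 7.72 against other cells, where the medians of the 12740 and 15593 genes tested were -0.04 and -0.06. Visceral endoderm differed broadly from both, since 29.2% of all genes tested were higher than in gut endoderm and 32.3% higher than in other cells. Signs of cell quality moved with the class. The median share of mitochondrial UMIs was 7.1%, 5.64% and 6.39% in visceral endoderm of embryos 1, 2 and 3, 4.47%, 3.71% and 4.05% in gut endoderm and 3.35%, 2.68% and 2.96% in other cells, and its part in the differences was not tested. Doublet scores in the top 6% were found in 10.3%, 14.3% and 12.5% of visceral endoderm cells and in 5.82%, 4.42% and 4.64% of other cells, and with those cells left out all 10 genes stayed higher in both comparisons. The doublet caller marked 3 cells in all and did not work here, so the part of mixed droplets was not tested. The fewest UMIs of any of the 10 in gut endoderm were the 76 of Apoa4.

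**Figure D1:**
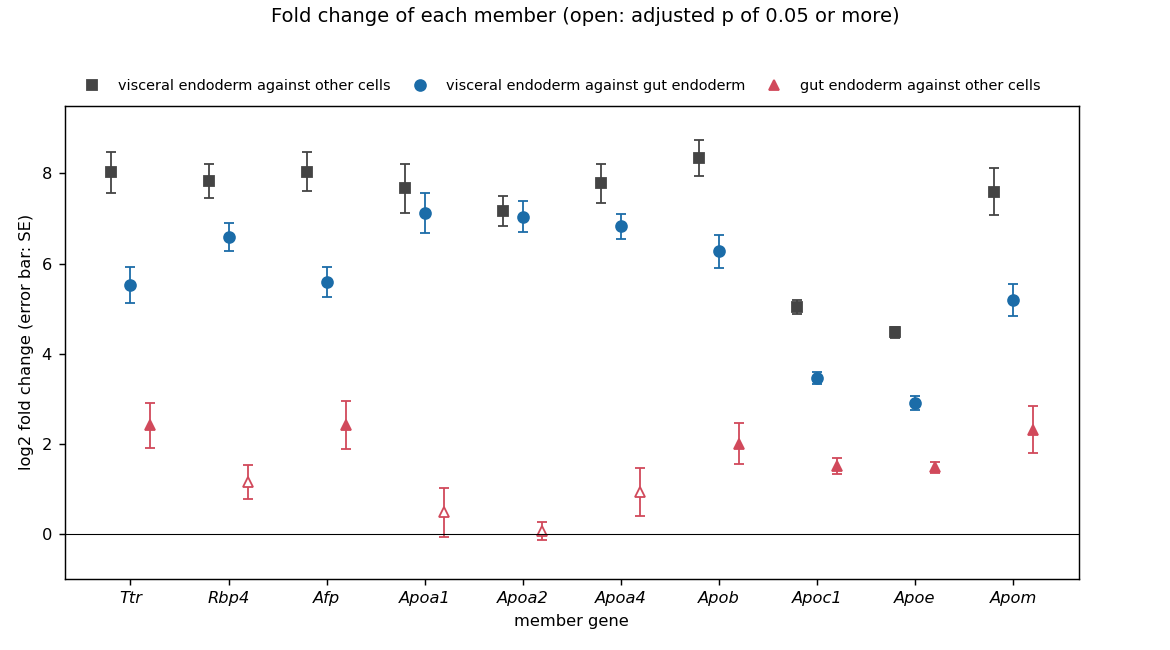
Log2 fold change of each gene (vertical axis, error bars are SE) in visceral endoderm against other cells, visceral endoderm against gut endoderm and gut endoderm against other cells, from sums of 3 embryos per class. The visceral endoderm values are all filled and none is lower than the 2.91 of Apoe against gut endoderm, while Rbp4, Apoa1, Apoa2 and Apoa4 are open in gut endoderm, where their adjusted p was 0.05 or more.

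Of the carriers, Ttr encodes transthyretin, which transports thyroid hormone. It was at 4753, 5561 and 4471 CPM in visceral endoderm of embryos 1, 2 and 3, and at 55, 193 and 113 CPM in gut endoderm. The classes were far apart in every embryo, with a fold change of 46.2 (log2 5.53 ± 0.40 SE, adjusted p = 2.06e-06). Cells that met both gates are in neither class, and they had 3141, 4139 and 3772 CPM of Ttr in embryos 1, 2 and 3. No fit counted all of them as gut endoderm. Their median depth was 44427.5, 27655.5 and 25857 UMIs in embryos 1, 2 and 3. Doublet scores in the top 6% were found in 10.5%, 29% and 16% of them. The part of mixed droplets in these cells was not tested. Of all Ttr UMIs in filtered cells, 83.8% ± 6.07 lay in visceral endoderm and 12.7% ± 5.53 in the few cells that met both endoderm gates. Rbp4, the plasma carrier of retinol, was at 3787, 4567 and 3695 CPM in visceral endoderm and at 28.2, 70.1 and 44 CPM in gut endoderm, a fold change of 96.5 (log2 6.59 ± 0.32 SE, adjusted p = 1.44e-07). Embryo 2 was highest for both genes in both classes. Afp, the fetal counterpart of albumin, was at 486, 411 and 399 CPM in visceral endoderm and at 4.62, 11.7 and 15.7 CPM in gut endoderm, a fold change of 48.4 (log2 5.60 ± 0.33 SE, adjusted p = 4.95e-07). Embryo 1 had the highest Afp level in visceral endoderm and the lowest in gut endoderm. Albumin itself (Alb) had 0 UMIs in visceral endoderm.

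Apob encodes the structural protein on which chylomicrons and very low density lipoproteins are assembled. Its level was 1737, 1478 and 1311 CPM in visceral endoderm and 10.5, 35.5 and 22.2 CPM in gut endoderm, a fold change of 77.4 (log2 6.27 ± 0.37 SE, adjusted p = 4.62e-07). Against other cells it had the highest fold change of the 10 genes and ranked 7 from the highest among the 15593 genes tested.

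The exchangeable apolipoproteins move between lipoprotein particles. Apoa1, the main protein of high density lipoprotein, was at 2651, 4050 and 3198 CPM in visceral endoderm and at 10.9, 39.9 and 32.5 CPM in gut endoderm, a fold change of 139 (log2 7.11 ± 0.44 SE, adjusted p = 7.29e-07). Apoa2, its partner on the same particles, varied most among embryos, with 278, 591 and 365 CPM in visceral endoderm, while gut endoderm had 3.03, 4.05 and 3.83 CPM (fold change 132, adjusted p = 1.62e-07). Apoa4, which the intestine puts on chylomicrons in later life, was at 298, 296 and 225 CPM against 1.58, 5.1 and 2.38 CPM (fold change 114, adjusted p = 5.45e-08). These 3 genes had the highest folds of the set against gut endoderm.

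Apoc1 and Apoe had the lowest folds. Apoc1, an inhibitor of lipoprotein uptake, was at 200.3, 159.8 and 169 CPM in visceral endoderm and at 15, 18.6 and 20.7 CPM in gut endoderm (fold change 11, log2 3.46 ± 0.14 SE, adjusted p = 4.99e-08). Apoe, a ligand for the receptor uptake of lipoproteins, was at 4778, 5031 and 3879 CPM in visceral endoderm and still at 559, 805 and 666 CPM in gut endoderm (fold change 7.52, log2 2.91 ± 0.16 SE, adjusted p = 2.8e-07). In all filtered cells, 61.1% ± 15.6 of Apoe UMIs and 68.2% ± 13.3 of Apoc1 UMIs lay in visceral endoderm, whereas the means of the other 8 genes lay between 83.6% (Apom) and 88% (Apoa4). Apom, a lipocalin that rides on high density lipoprotein and carries sphingosine-1-phosphate, was at 1498, 1805 and 1480 CPM against 23.6, 73.4 and 52.7 CPM in gut endoderm (fold change 36.5, log2 5.19 ± 0.35 SE, adjusted p = 1.39e-06).

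Free RNA in droplets can give UMIs in cells that do not transcribe a gene. Levels in cardiac and erythroid cells, which share the libraries but met neither endoderm gate, are given beside those of visceral endoderm. In cardiac cells 8 of the 10 genes stood at mean levels between 0.23% (Apob) and 0.555% (Apom) of those in visceral endoderm of the same embryo, and in erythroid cells between 0.337% (Apob) and 0.67% (Apoa4). Apoc1 and Apoe stood higher, at 2.75% ± 0.619 and 14.3% ± 1.08 in cardiac cells and at 2.49% ± 0.578 and 2.65% ± 0.853 in erythroid cells (2 embryos). Over the 10 genes, the median share of the visceral endoderm level in cardiac cells was 0.193%, 0.487% and 0.565% in embryos 1, 2 and 3. Embryo 1 had the lowest share, and it also had the smallest fraction of visceral endoderm cells. For Apoe the cardiac and erythroid values were far apart. The part of free RNA in these levels was not tested.

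**Figure D2:**
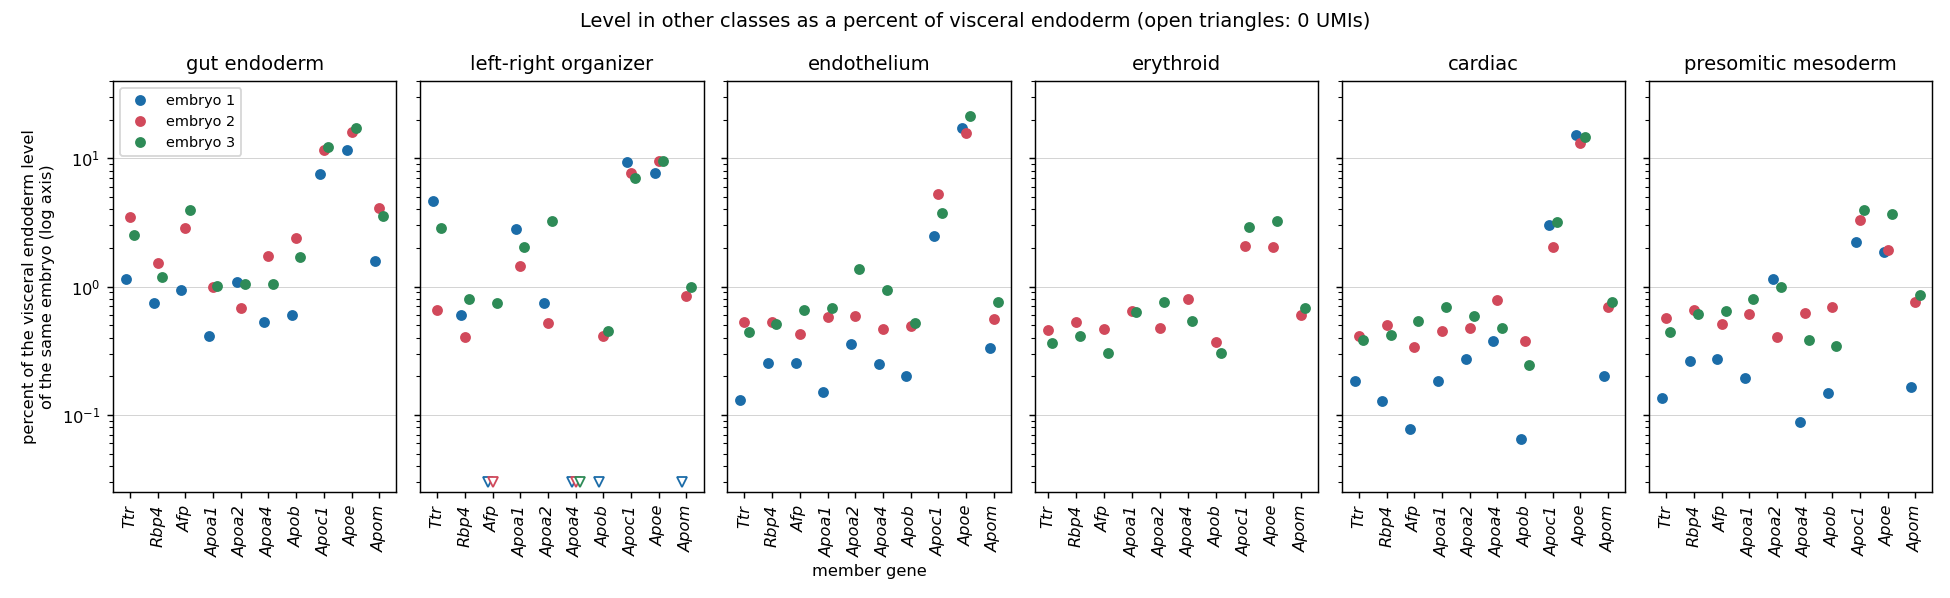
Level of each gene in 6 classes of cells as a percent of its level in visceral endoderm of the same embryo (log axis), with 1 point per embryo and open triangles for 0 UMIs. Apoc1 and Apoe stand above the other genes in each class shown, and in gut endoderm 9 of the 10 genes stand above their cardiac values in each embryo, while Apoe does so in embryos 2 and 3.

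Shares of cells with a UMI followed the same split for Ttr and Apoa2, but not for Apoe. Ttr was detected in 95.3% ± 2.81 of visceral endoderm cells, 45.8% ± 5.76 of gut endoderm cells and 22.6% ± 1.7 of cardiac cells. After each cell was thinned to 5000 UMIs, with shallower cells left out, these shares were 92.9% ± 3.21, 18% ± 5.15 and 5.68% ± 2.39. Median depth was 28326, 16569 and 16507 UMIs in visceral endoderm of embryos 1, 2 and 3, 28147, 16201.5 and 18928 in gut endoderm and 26055, 11969 and 15966.5 in cardiac cells. For Apoa2 the share was 87.9% ± 4.47, 8.39% ± 1.41 and 2.92% ± 1.04 in the same classes, and 69% ± 11, 1.8% ± 0.53 and 0.77% ± 0.681 after thinning. For Apoe it was 99.7% ± 0.189, 97.6% ± 0.25 and 99.8% ± 0.372, and after thinning 97.1% ± 1.43, 86.3% ± 4.21 and 94.8% ± 0.0533.

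Gut endoderm, the epithelium of the future digestive tube, held some of these transcripts above the level of other cells. In this comparison 6 of the 10 genes were higher, where 14.3% of all 15393 genes tested were. They were Ttr (2.40 ± 0.50, adjusted p = 0.0082, as log2 fold change ± SE), Afp (2.41 ± 0.53, adjusted p = 0.011), Apom (2.31 ± 0.53, adjusted p = 0.013), Apob (2.00 ± 0.47, adjusted p = 0.014), Apoc1 (1.51 ± 0.18, adjusted p = 4.65e-04) and Apoe (1.47 ± 0.13, adjusted p = 7.96e-05). Not called were Rbp4 (1.15 ± 0.38, adjusted p = 0.058), Apoa4 (0.93 ± 0.54, adjusted p = 0.25), Apoa1 (0.48 ± 0.54, adjusted p = 0.57) and Apoa2 (0.06 ± 0.20, adjusted p = 0.88). With the embryo as a block, Rbp4 (adjusted p = 9.41e-07), Apoa1 (2.61e-04) and Apoa4 (0.0038) passed too, so that 9 of 10 were higher where 20.4% of all genes were, and Apoa2 did not pass (0.76). Without embryo 1, Rbp4 and Apoa1 passed (adjusted p = 0.014 and 0.046). The other cells had 10.1, 32.2 and 23 CPM of Ttr in embryos 1, 2 and 3, below the lowest gut endoderm. For Apoa1 they had 6.97, 26.2 and 22.9 CPM, which overlapped gut endoderm, although each embryo had more Apoa1 in its own gut endoderm. Embryo 1 was lowest in both classes for both genes.

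The call in gut endoderm was lost without embryo 3 for Ttr and without embryo 2 or embryo 3 for Afp, Apob and Apom, and all 4 held without embryo 1. Like the main fit, the fits with an embryo left out had no embryo term. Without embryo 3, the adjusted p was 0.078 for Ttr, 0.089 for Afp, 0.097 for Apob and 0.091 for Apom, and without embryo 2 it was 0.088 for Afp, 0.085 for Apob and 0.086 for Apom. Of the markers of the visceral endoderm gate, Amn was at 22.9 ± 10.2 CPM and Cubn at 3.46 ± 2.08 CPM in gut endoderm. The 229 gut endoderm cells with a UMI of Amn but not of Cubn had 270.3 ± 138 CPM of Ttr, 32.9 ± 15 of Afp, 136 ± 53.5 of Apom and 1259 ± 175 of Apoe. The 766 cells with neither had 55 ± 29.6, 2.79 ± 1.24, 21 ± 12.5 and 508 ± 70.9 CPM. Each of these 4 genes had its larger value with Amn in all 3 embryos. The 73 cells with Cubn but not Amn had 149 ± 120.5 CPM of Ttr, 5.7 ± 9.16 of Afp, 17.1 ± 9.15 of Apom and 366 ± 126 of Apoe. With Cubn, Ttr was larger than with neither in all 3 embryos and Apoe smaller in all 3, while Afp and Apom went both ways. These groups differed in depth. Median depth in embryos 1, 2 and 3 was 34733, 19381.5 and 23119 UMIs with Amn only. It was 38647, 25780 and 30605 with Cubn only, and 26902, 15251 and 16077.5 with neither. The part of depth in these levels was not tested. Doublet scores in the top 6% were found in 14.7%, 8.18% and 12.3% of gut endoderm cells of embryos 1, 2 and 3, and with those cells left out all 6 genes stayed higher. Since the doublet caller did not work here, the part of mixed droplets in the gut endoderm levels was not tested.

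In gut endoderm, from which the cells of both gates were kept apart, Ttr was held by few cells. The median cell had 0 CPM in all 3 embryos, the 95th percentile was 205, 1165 and 858 CPM, and the 10% of cells with the most UMIs held 78.4%, 83.7% and 77.1% of them. Above 1000 CPM were 0.466%, 6.06% and 4.53% of gut endoderm cells, against 88.7%, 94.6% and 88.8% of visceral endoderm cells. Apoe was spread more evenly, with medians of 404, 635 and 562 CPM in gut endoderm and 34.4%, 35.8% and 33.5% of UMIs in the top 10% of cells.

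Apoe had the broadest pattern. After visceral endoderm came endothelium (789.8 to 833 CPM), gut endoderm (559 to 805), cardiac cells (565 to 727) and the left-right organizer (367 to 478), and presomitic mesoderm was last (88.7 to 142). Neighbours in this order overlapped from endothelium to cardiac cells. Cardiac cells, left-right organizer, paraxial mesoderm (246 to 315) and mesenchyme (185 to 235) did not overlap in turn. Against cardiac cells Apoe was lower in 9 lineages. The fold was 1.91 in left-right organizer (adjusted p = 4.71e-05, where 18.5% of genes were lower), 2.38 in paraxial mesoderm (adjusted p = 1.24e-07, where 7.05% of genes were lower) and 3.1 in mesenchyme (adjusted p = 7.53e-10, where 5.53% of genes were lower). It was 3.47 in neuroectoderm (adjusted p = 3.39e-11, where 12.6% of genes were lower), 3.68 in caudal epiblast (adjusted p = 9.06e-12, where 12% of genes were lower) and 4.71 in surface ectoderm (adjusted p = 1.22e-12, where 8.8% of genes were lower). The largest folds were 4.85 in erythroid cells (adjusted p = 2.7e-12, where 25.5% of genes were lower), 4.94 in allantois (adjusted p = 5.19e-13, where 8.66% of genes were lower) and 6.16 in presomitic mesoderm (adjusted p = 6.56e-15, where 9.85% of genes were lower). Endothelium (log2 0.30 ± 0.15 SE, adjusted p = 0.15) and gut endoderm (log2 0.36 ± 0.15 SE, adjusted p = 0.074) were not called, and gut endoderm was higher with the embryo as a block (adjusted p = 0.028).

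**Figure D3:**
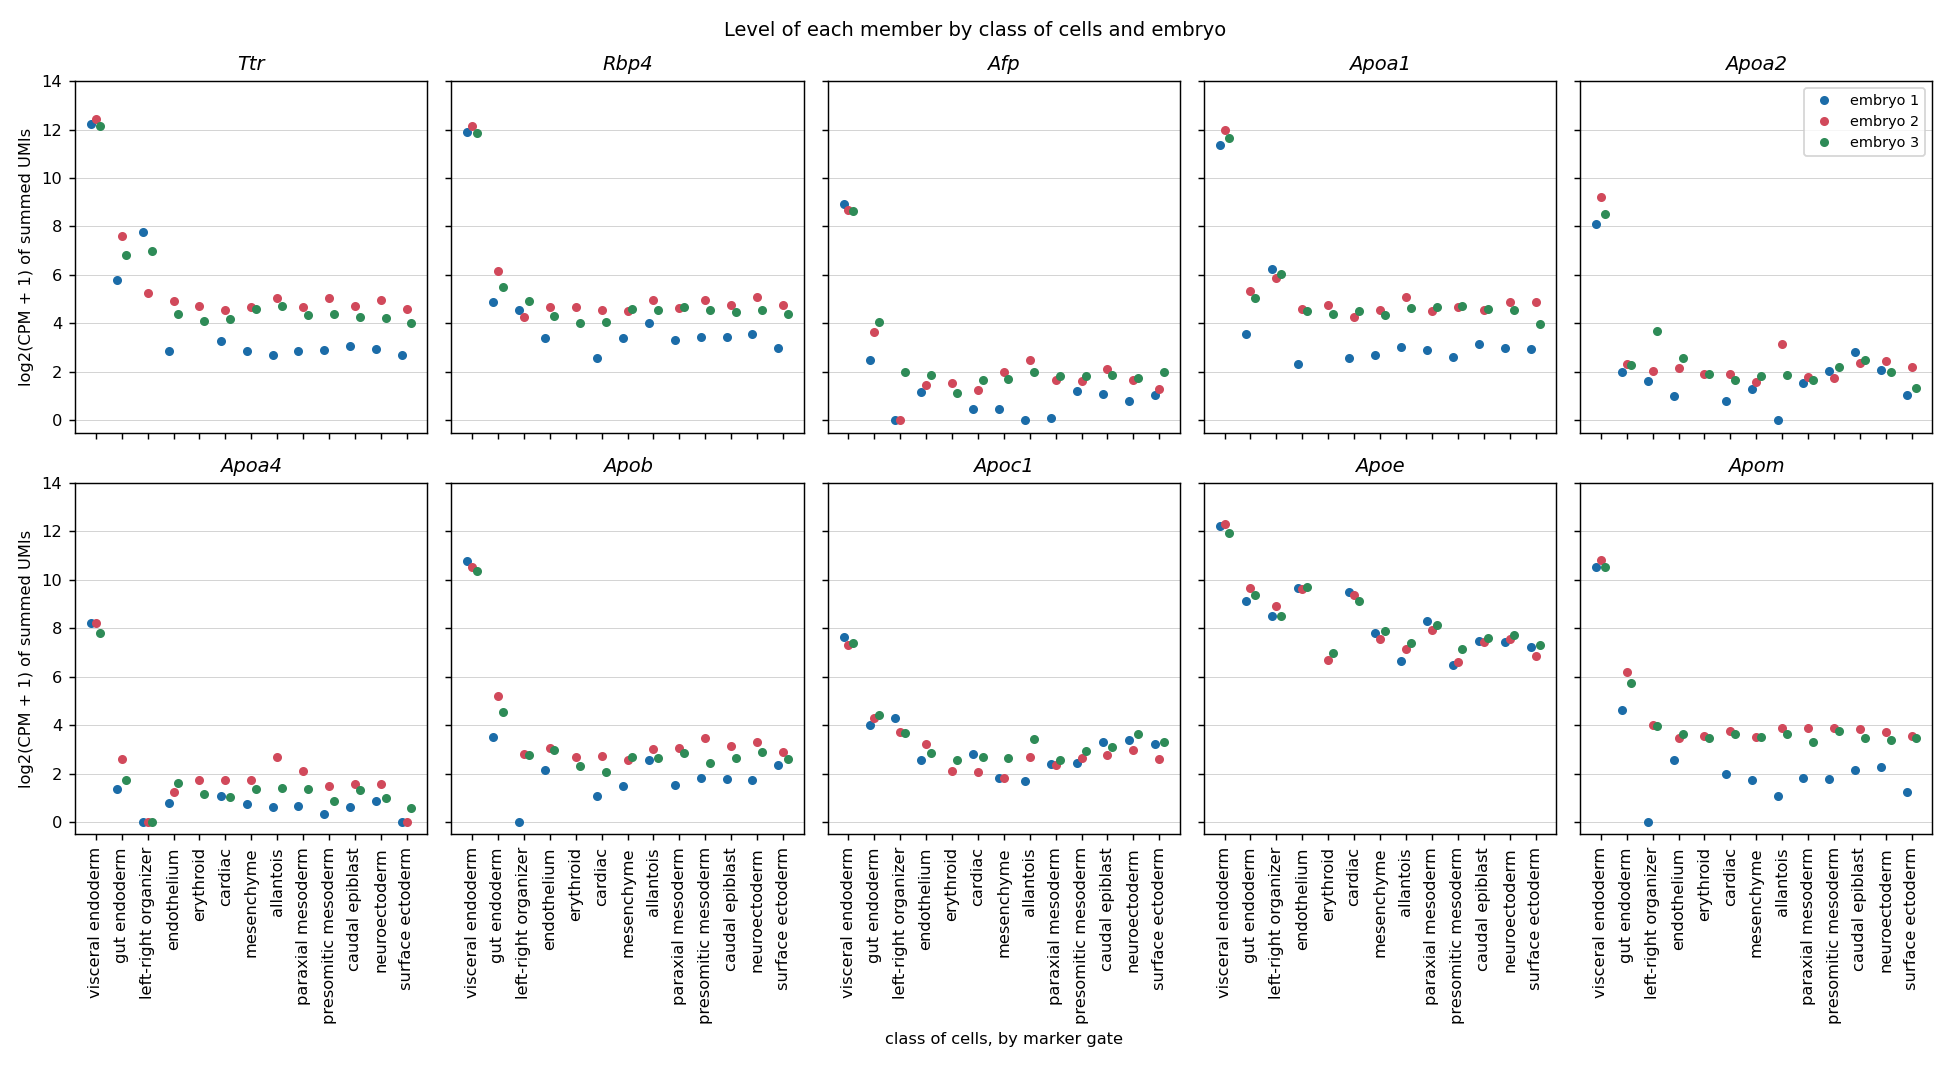
Level of each gene, as log2(CPM + 1) of summed UMIs, in 13 classes of cells (horizontal axis), with 1 point per embryo and the single erythroid cell of embryo 1 left out. Visceral endoderm is highest for each of the 10 genes, and Apoe varies widely over the other classes, also outside the endoderm, where most genes lie flat.

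Apart from Apoe and Apoc1, the genes stood at a low share of their visceral endoderm level outside the endoderm, with few exceptions. Apoc1 stood higher, at mean shares from 2.00% (mesenchyme) to 5.26% (neuroectoderm) and at 8.00% in the left-right organizer. All 10 genes were higher in visceral endoderm than in cardiac cells, where 30.9% of genes were. In gut endoderm against cardiac cells Ttr (log2 3.48), Afp (3.45), Apob (3.15), Apom (2.92), Rbp4 (2.07) and Apoc1 (1.93) were higher, with adjusted p between 8.23e-06 and 0.0021, where 16.5% of all 13620 genes were. The block added Apoa1 (1.07, adjusted p = 0.018) and Apoe, where 18.8% of genes were higher, and both also passed without embryo 1 (adjusted p = 0.001 and 0.0027). In the order of mean levels, gut endoderm stood next to visceral endoderm for Rbp4, Afp, Apoa4, Apob, Apoc1 and Apom, and for Apob and Apom its lowest embryo was above every embryo of the classes below it. Outside the endoderm and the left-right organizer, the calls above cardiac cells came with the block and were Apoa2 in caudal epiblast (1.56, adjusted p = 0.023, or 0.09 without it, where 13.5% of genes were higher) and Apoc1 in neuroectoderm (0.89, adjusted p = 0.028, or 0.053 without it, where 13.8% were). Both were low, at 5.00 ± 1.04 and 9.26 ± 2.24 CPM.

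The left-right organizer had Ttr above cardiac cells. Its 27, 26 and 26 cells in embryos 1, 2 and 3 had 219.7, 36.8 and 127 CPM of Ttr, from 106, 12 and 43 UMIs, against 8.66, 22.8 and 17.3 CPM in cardiac cells. Ttr was found in 25, 4 and 18 of these cells. Embryo 2 was far below the others, and its 15.4% of cells with Ttr (95% Clopper-Pearson interval 4.36% to 34.9%) had the 21.3% of its cardiac cells within their interval. These 2 shares are not matched for depth, with medians of 8259.5 UMIs in organizer cells and 11969 in cardiac cells of embryo 2. The fold change was 7.26 (log2 2.86 ± 0.81 SE, adjusted p = 0.0048, where 18.3% of genes were higher), and without embryo 3 the adjusted p was 0.073.

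Apoa1 was steadier there, at 74.6, 58.2 and 65 CPM from 36, 19 and 22 UMIs, against 4.89, 18.2 and 22.1 CPM in cardiac cells, and did not overlap gut endoderm. Its difference from cardiac cells missed the threshold (log2 1.99 ± 0.95 SE, adjusted p = 0.1) and passed with the embryo as a block (adjusted p = 0.0013, where 18.6% of genes were higher) and without embryo 1 (adjusted p = 0.0023). After thinning, Apoa1 was found in 33.3%, 26.3% and 29.2% of organizer cells and in 2.08%, 10.3% and 11.2% of cardiac cells. With organizer cells kept that met gates of other lineages, neither gene passed, at 1.84 ± 0.74, adjusted p = 0.052 for Ttr and 1.21 ± 0.81, adjusted p = 0.27 for Apoa1. Mean shares of the visceral endoderm level were then 1.23% instead of 2.71% for Ttr and 1.13% instead of 2.10% for Apoa1. Median depth was 28447, 14168 and 23676.5 UMIs in this wider group and 26055, 11969 and 15966.5 in cardiac cells. In organizer cells of exactly 1 gate it was 13292, 8259.5 and 9236.5. The part of depth in these levels was not tested. Apoa4 had 0 UMIs in the organizer cells of all 3 embryos. An approximate upper bound, not a Clopper-Pearson interval, is 3 counts over the number of cells. It allows a share of cells with a UMI of up to 11.1%, 11.5% and 11.5% at these depths (medians of 13292, 8259.5 and 9236.5 UMIs). With cells of other gates kept, Apoa4 had 5 UMIs in all, and 3.21% ± 1.41 of cells had one.

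Among visceral endoderm cells the 10 genes were widely shared. A UMI of each of the 10 was found in 82.1%, 75.4% and 68.2% of cells of embryos 1, 2 and 3. Over cells, the coefficient of variation lay between 0.451 and 0.553 for Apoe, Rbp4 and Apom, between 0.527 and 0.661 for Ttr, Apoa1 and Apob, and between 0.727 and 1.08 for Afp, Apoa2, Apoa4 and Apoc1. The last 4 are the genes with the fewest UMIs in visceral endoderm. Apoa2 had medians of 209, 532 and 309 CPM per cell, lower quartiles of 62.7, 265 and 82.6 and upper quartiles of 484, 925 and 626. Over the 291, 1283 and 1035 cells of each embryo, which share a library and differ in depth, the highest rank correlation by the median of the embryos was between Apoa1 and Apom (Spearman's rho 0.697 to 0.796) and the lowest between Apoa2 and Apoe (0.226 to 0.339). In embryo 1, Ttr and Apom (0.726) and Ttr and Apoa1 (0.712) stood above Apoa1 and Apom (0.697). The nearby genes Apoa1 and Apoa4 had 0.346 to 0.461 and the nearby genes Apoe and Apoc1 0.284 to 0.427, while Apoe and Apom, on different chromosomes, had 0.667 to 0.695.

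**Figure D4:**
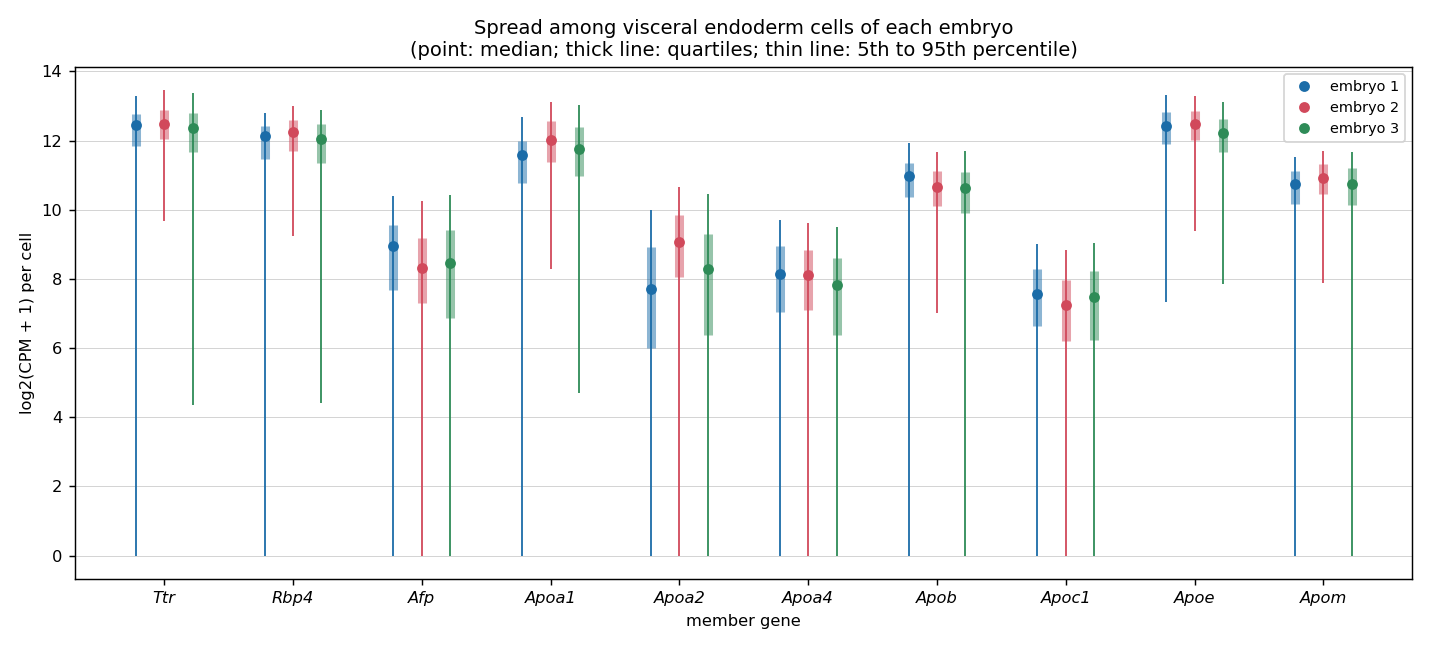
Spread of each gene over visceral endoderm cells of each embryo, as log2(CPM + 1) per cell, with the median (point), quartiles (thick line) and 5th to 95th percentiles (thin line). In embryo 1 the thin line reaches 0 for each gene but Apoe, whose 5th percentile is 160.4 CPM.

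A small group of cells met the visceral endoderm gate with little Ttr. Under 100 CPM of Ttr were 28, 49 and 88 cells of embryos 1, 2 and 3, and 92.9%, 69.4% and 80.7% of them met the gate of a further lineage, against 8.37%, 10.3% and 9.71% of the remaining visceral endoderm cells. They had medians of 48802, 26265 and 36630.5 UMIs, against 27744, 16458.5 and 15950 in the rest. With cells in several gates left out, all 10 genes stayed higher in visceral endoderm in both comparisons. Levels also varied with the gut endoderm genes that a visceral cell carried, which is given without a test. The 1322 cells with Sox17 but not Trh had 5646 ± 396 CPM of Ttr and 498 ± 62.2 of Afp. The 1155 cells with neither had 4219 ± 867 and 366 ± 10.3 CPM, and the 132 cells with Trh but not Sox17 had 2922 ± 748 and 261 ± 25.6 CPM. This order held in all 3 embryos for both genes. The groups also differed in depth, on which detection of a gene depends. Median depth in embryos 1, 2 and 3 was 29356, 18005.5 and 17079.5 UMIs with Sox17 only. It was 24990, 15158 and 15684 with neither, and 32725.5, 19198 and 28537 with Trh only. The part of depth in these levels was not tested. The 301 cells that met both endoderm gates had 3684 ± 505 CPM of Ttr and 305 ± 29.2 of Afp.

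Other genes of lipid and plasma protein transport were read from lists beside these 10. In visceral endoderm against gut endoderm, 29.2% of all genes tested were higher and 29.5% lower. Of 10 genes in a list of other apolipoproteins, which also holds Apobec1, not itself an apolipoprotein gene, 6 were tested. Of these, 4 were higher and 1 (Apod) lower, with a median log2 fold change of 3.27. The higher ones were Apoc3, an inhibitor of lipoprotein lipase (81.4 ± 10.8 against 0.602 ± 0.293 CPM), Apoa5 (13.3 ± 2.58 against 2.04 ± 0.563), Apoc2, the activator of lipoprotein lipase (2.32 ± 0.787 against 0.238 ± 0.226), and Apoc4, with 460 UMIs in visceral endoderm and 1 in gut endoderm. With so few UMIs in gut endoderm, Apoc3, Apoc2 and Apoc4 passed the low-count filter through visceral endoderm. Genes that pass in this way can only be called higher, so the count is a description. Of 16 tested genes of lipoprotein assembly and lipid handling, 12 were higher and 1 lower (median 0.80), against the same 29.2% and 29.5% of all genes. They included Mttp, which loads lipid onto apolipoprotein B (log2 4.03, 202 ± 17.1 against 13.8 ± 1.58 CPM), the cholesterol esterifying enzyme Soat2 (5.86) and the fatty acid binding proteins Fabp1 (6.66) and Fabp2 (7.31).

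Genes of the uptake side were read in the same way. Of 10 lipoprotein receptor genes 3 were higher in visceral endoderm and 5 lower (median -0.58), where 29.2% of all genes were higher and 29.5% lower. The count of higher genes stands near that share. Of the higher ones, Lrp2, the endocytic receptor megalin, differed by 3.93 and Scarb1, a receptor of high density lipoprotein, by 2.50 on the log2 scale. The 5 lower ones are not named here. Among 11 tested partners of retinoids and thyroid hormone 4 were higher and 2 lower (median 0.13), and the count of higher genes stands near the 29.2% of all genes. Bco1, which cleaves carotene to retinal, was higher by 6.16 and the retinol dehydrogenase Rdh10 by 2.53. Rbp2, an intracellular retinol-binding protein, had 85 UMIs in visceral endoderm and 0 in gut endoderm, and Stra6, the membrane receptor of retinol-binding protein, fell by 2.32. Rbp2 passed the low-count filter only through visceral endoderm, so it could only be called higher.

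Of 8 tested genes of other secreted carriers and plasma proteins 7 were higher and 1 (Hpx) lower (median 4.54), where 29.2% of all genes tested were higher and 29.5% lower. The higher ones included the fibrinogen chains Fgb (6.52) and Fga (6.28), transferrin (Trf, 4.63) and vitamin D-binding protein (Gc, 5.09, from 4 UMIs in gut endoderm). Gc passed the low-count filter only through visceral endoderm, so it could only be called higher. Of 13 tested endoderm transcription factors 6 were higher and 4 lower (median 0.15), and the count of lower genes stands near the 29.5% of all genes. Hnf4a (6.22) and Gata4 (2.53) were higher, and Foxa1 fell by 5.05.

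Genes in and around the pairs were read along the chromosome. Apoc3, between Apoa1 and Apoa4, was higher in visceral endoderm than in gut endoderm by 7.45. Beside this pair Apoa5 was higher by 2.78, Zpr1 by 0.89 and Sik3 by 0.37, while Bud13 was not called (-0.13, adjusted p = 0.35). Beside Apoe and Apoc1, Apoc4 was higher by 7.75 and Apoc2 by 3.76, Clptm1 by 0.69 and Tomm40 by 0.44, while Nectin2 fell by 1.10 on the log2 scale. Of these 10 neighbours 8 were higher, where 29.2% of all genes were, and the 4 apolipoprotein genes among them had the largest differences. Apoc4 and Apoc2 rest on 1 and 5 UMIs in gut endoderm. Like Apoc3, they passed the low-count filter through visceral endoderm and could only be called higher, so the count of 8 is a description.

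The genes most like each of the 10 were sought over 38 sums of class and embryo, among 11208 genes of at least 10 CPM in 1 or more of them, by the Pearson correlation of log2(CPM + 1). The sums share libraries and differ in depth, and the correlations are a description. Amn, a gene of the gate itself, was among the top 3 for Ttr (0.934), Rbp4 (0.964), Afp (0.97), Apob (0.97) and Apom (0.957). Beside it stood Cideb and Myo6 for Ttr, Ifi27l2b and Hnf4a for Rbp4, Trf and Pnma5 for Afp, Trf and Lgals2 for Apob, and Rhox5 and Lgals2 for Apom. Apoa1 was most like Spp2 (0.938), Cox14 and S100g, Apoa2 most like Erich4 (0.954), Fgb and Ifi27l2b, and Apoa4 had Ifi27l2b (0.967) and Timd2 among its top 3. Apoc1 was most like Tpp1 (0.938), Aldh7a1 and Pikfyve. For Apoe the top gene was Ctsh (0.915), before Ddc and Kdelr3. Apoe also had the lowest correlations with the other 9 genes, from 0.723 to 0.806, while pairs without it reached from 0.825 to 0.971.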

How the data were processed

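RNA of 3 wild-type embryos, 1 library each, was measured in droplets. The authors processed the reads with Cell Ranger (version 3.1.0) against mm10 with EGFP added, and deposited raw UMI counts of 31054 features in 23533 barcodes, without normalization. Cells were kept within the study's limits, which are 1500 to 8500 genes (7500 in embryo 2) and at most 10% mitochondrial UMIs. A further 573 cells under 0.5% mitochondrial UMIs were dropped in place of the low-mitochondrial clusters that the study left out. Scrublet (scanpy 1.11.5) called 3 doublets in all and so did not work here. Cells were kept, and leaving out the top 6% of scores was an alternative. Depth was 144790573 to 191843539 UMIs per embryo in the kept cells, and intervals cover counting error only.

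UMIs were summed per embryo and class (sums of fewer than 10 cells left out) and tested with edgeR (version 4.0.16, R version 4.3.3), glmQLFit and glmQLFTest after TMM and filterByExpr, 3 sums against 3. For cardiac contrasts 1 fit held all 13 gated lineages, each from cells that met exactly 1 gate. Standard errors come from the F statistic. Sums of 1 embryo share its cells' handling. Across genes, their deviations from class means correlated between 0.284 and 0.436 within embryos. The main fits and the fits with an embryo left out did not use this pairing. Only the fit with the embryo as a block did. Alternatives were that block, DESeq2 (version 1.42.0), no low-count filter, each embryo left out, a gate of 2 UMIs, cells in 1 gate, low-mitochondrial cells kept, top doublet scores left out, thinning to 5000 UMIs and, chosen after the data were seen, a mitochondrial maximum of 20% and organizer cells of several gates. The main fit was also run on simulated counts. For visceral against gut endoderm, visceral endoderm against other cells and gut endoderm against other cells, 77.3%, 67% and 63% of 2-fold changes were recovered. For 4-fold changes it was 100%, 96% and 83%. The simulated sums had no embryo effect, so they cannot show how the main fit does with sums of 1 embryo that deviate together.

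The 10 genes and the lists were chosen with earlier results of these data known. Beside the 10, the text names at most 4 genes per list with the largest changes between visceral and gut endoderm, every listed neighbour, and the 3 most alike genes of each member. Genes that were the only ones of their list called lower (Apod, Hpx) and Alb were named after their values were seen. Of the features, 30934 were found in the GENCODE annotation (vM21), from which positions were taken. Protein sequences were not used here, and some genes and 1 motif that these rules name are not reported here.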

Additional observations from a re-analysis of the deposited data

How the results depend on the processing

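The calls of all 10 genes in visceral endoderm against gut endoderm and against other cells kept their direction and stayed past the threshold under all 12 alternatives of each. In gut endoderm against other cells Apoc1 and Apoe did so as well, Ttr in 11 of 12, and Afp, Apob and Apom in 10 of 12. Of the genes not called in the main fit there, Rbp4 passed in 6 of 12, Apoa1 in 2, Apoa4 in 1 and Apoa2 in 0. The difference of Apoa2 there, which missed the threshold, turned to -0.42 with a gate of 2 UMIs, -0.11 with cells in 1 gate, -0.17 with low-mitochondrial cells kept and -0.030 without the top doublet scores. The genes called in gut endoderm against other cells numbered 3626, or 6091 with the embryo as a replicate block, and 1550 to 2186 when an embryo was left out. For the 10 genes, the block changed no call of visceral endoderm. Over all genes, it raised the calls of visceral endoderm from 7480 to 8453 against gut endoderm and from 9914 to 11224 against other cells.

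With an embryo left out, the genes called were 5955 to 6482 for visceral against gut endoderm, 7758 to 9280 for visceral endoderm against other cells, and, against cardiac cells, 6857 to 7074 (visceral endoderm), 2794 to 3141 (gut endoderm), 4206 to 5992 (erythroid), 2657 to 3351 (endothelium), 1624 to 1837 (presomitic mesoderm), 1005 to 1197 (paraxial mesoderm), 1232 to 1585 (allantois), 968 to 1418 (mesenchyme), 1949 to 2363 (neuroectoderm), 1425 to 1625 (surface ectoderm), 2024 to 2243 (caudal epiblast) and 3027 to 4181 (left-right organizer), with fewer samples in each fit. Shares of cells with a UMI fell on thinning, and 38 of 40 moved by more than 1 SD. Genes with few UMIs outside visceral endoderm (Apoa4, Apoa2, Afp) are limited by depth there.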
